A study of Homo sapiens with 4 samples.

Results

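The genes described here are 44 members of the ATF4 pathway and the unfolded protein response, chosen by symbol from the deposited count table, which lists 35606 genes. All 44 were found, and all 44 were among the 14750 genes with enough counts to be tested. They were split by function into an ATF4 amino acid arm of 22 genes and an ER chaperone arm of 22 genes. The samples are 4 poly(A)-selected, directional RNA-seq libraries from K562, an erythroid leukaemia cell line. In 2 of them, JS-1 and JS-2, the cells are labelled as expressing JAZF1-SUZ12, a fusion protein that joins JAZF1 to the Polycomb subunit SUZ12 and is known from endometrial stromal tumours. The other 2, Mock-1 and Mock-2, are from mock cells of the same line. How the fusion was introduced, whether each line is a clone, and whether the replicates came from separate cultures are not given in the sources used here, so p-values measure only the spread between these libraries, which may be technical.

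The unfolded protein response begins with 3 sensors in the membrane of the endoplasmic reticulum (ER), the compartment where secreted and membrane proteins fold. The kinase PERK (EIF2AK3) phosphorylates the translation initiation factor eIF2, which slows protein synthesis but favours translation of ATF4. ATF4 then activates genes for amino acid synthesis, amino acid transport and stress outputs, and other eIF2 kinases that sense amino acid shortage, heme shortage or viral RNA lead to ATF4 as well. The sensor IRE1 (ERN1) splices XBP1 mRNA, and ATF6 is cleaved to release a transcription factor; XBP1 and ATF6 activate chaperone, folding enzyme and degradation genes. ATF4 is controlled largely through translation, XBP1 through splicing and ATF6 through cleavage, and summed mRNA counts per gene measure none of these steps.

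Stress-responsive promoters are known for short response elements that differ between the 2 arms, and the stretches shown hold such an element in members described below. Sequences and positions are from RefSeq on GRCh38.p14, written 5′ to 3′ on the gene's strand, with the motif match in capitals. The first 4 hold the ER stress response element, searched as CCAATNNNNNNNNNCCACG. HYOU1 holds the unfolded protein response element, searched as TGACGTGG. The last 3 hold the C/EBP-ATF response element, searched as TGATGNAA, to which ATF4 binds with a C/EBP partner. In CALR and CHAC1 the capitals show the match as read on the opposite strand.
HSPA5, chr9:125241371-125241429 (minus strand): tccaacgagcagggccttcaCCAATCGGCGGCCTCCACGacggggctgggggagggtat
PDIA6, chr2:10812833-10812891 (minus strand): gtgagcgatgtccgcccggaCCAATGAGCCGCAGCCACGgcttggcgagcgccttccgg
XBP1, chr22:28800583-28800641 (minus strand): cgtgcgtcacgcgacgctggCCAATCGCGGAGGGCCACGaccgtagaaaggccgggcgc
CALR, chr19:12938364-12938422 (plus strand): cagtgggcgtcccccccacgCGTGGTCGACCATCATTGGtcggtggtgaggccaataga
HYOU1, chr11:119057366-119057413 (minus strand): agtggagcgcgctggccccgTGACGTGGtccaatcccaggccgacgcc
ASNS, chr7:97872449-97872496 (minus strand): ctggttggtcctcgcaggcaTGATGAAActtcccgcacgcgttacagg
CHAC1, chr15:40953242-40953289 (plus strand): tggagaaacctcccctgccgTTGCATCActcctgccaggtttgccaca
CEBPG, chr19:33374051-33374098 (plus strand): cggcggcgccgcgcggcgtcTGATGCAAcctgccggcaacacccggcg

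Each motif was searched on both strands in the 250 bases before the start of transcription, in 35116 windows of that length, of which 55 belong to 39 members. NUPR1, PDIA3, PSPH, SHMT2 and SLC7A11 were not matched to a window. The ER stress response element was found in 0.074% of all windows. It was found in 7 of the 21 ER-arm genes with a window (HSPA5, HSP90B1, CALR, CANX, PDIA6, CRELD2 and XBP1) and in 0 of the 18 ATF4-arm genes with a window. A gene can have several windows, and counted by window it was in 8 of 27 in the ER arm and 0 of 28 in the ATF4 arm. HSP90B1 holds 2 copies. The C/EBP-ATF element was found in 3.14% of all windows, in 4 of 18 ATF4-arm genes (ASNS, ATF3, CEBPG and CHAC1) and in 1 of 21 ER-arm genes (HERPUD1). Counted by window, it was in 4 of 28 in the ATF4 arm and 1 of 27 in the ER arm. The unfolded protein response element was found in 0.612% of all windows, and among the members in HYOU1 alone. Its reverse complement contains the CCACG that ends the ER stress response element, so the 2 motifs can overlap. These matches are descriptions of letters in a window, not binding sites, and the absence of a match says nothing about binding elsewhere.

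With JAZF1-SUZ12, a small number of ATF4-arm genes rose and a small number of ER-arm genes fell, all by less than 2-fold. In the ATF4 arm, 5 of 22 genes rose (PHGDH, DDIT4, ASNS, SESN2 and PPP1R15A) and 1 fell (SLC7A5). In the ER arm, 0 of 22 rose and 6 fell (CALR, SDF2L1, HYOU1, XBP1, PDIA4 and DNAJB11). A gene counts as changed where the adjusted p of edgeR's quasi-likelihood test, with Benjamini-Hochberg adjustment over all genes tested, is under 0.05. By that rule 24.7% of all genes tested changed, 13.3% higher and 11.4% lower, and among the members 12 of 44 changed (27.3%), a share close to that background. Both arms had the same share, 6 of 22, mostly higher in the ATF4 arm and all lower in the ER arm; the difference between the arms was not tested. The 5 ATF4-arm genes that rose became 2 with DESeq2 or without Mock-1 and 3 without JS-2. The 6 ER-arm genes that fell became 3 with DESeq2, with total counts in place of TMM, with genes filtered at a mean of 50 counts (where EDEM1 rose) and without either mock library, 4 without JS-1, and 2 without JS-2.

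The median log2 fold change, JAZF1-SUZ12 over mock, was 0.05 in the ATF4 arm and -0.07 in the ER arm, beside 0.003 over all genes tested and -0.03 over the 11826 genes that reached a mean of 50 counts. The ATF4-arm median turned with 1 library: it was -0.0056 without Mock-1, and 0.0233 without JS-2. All members but NUPR1 and VLDLR reach a mean of 50 counts. In the ATF4 arm 13 genes had a positive and 9 a negative fold change, and in the ER arm 4 had a positive and 18 a negative one. No gene in the ER arm had a fold change above 0.15 on the log2 scale, that of EDEM1, which did not pass the test.

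**Figure D1:**
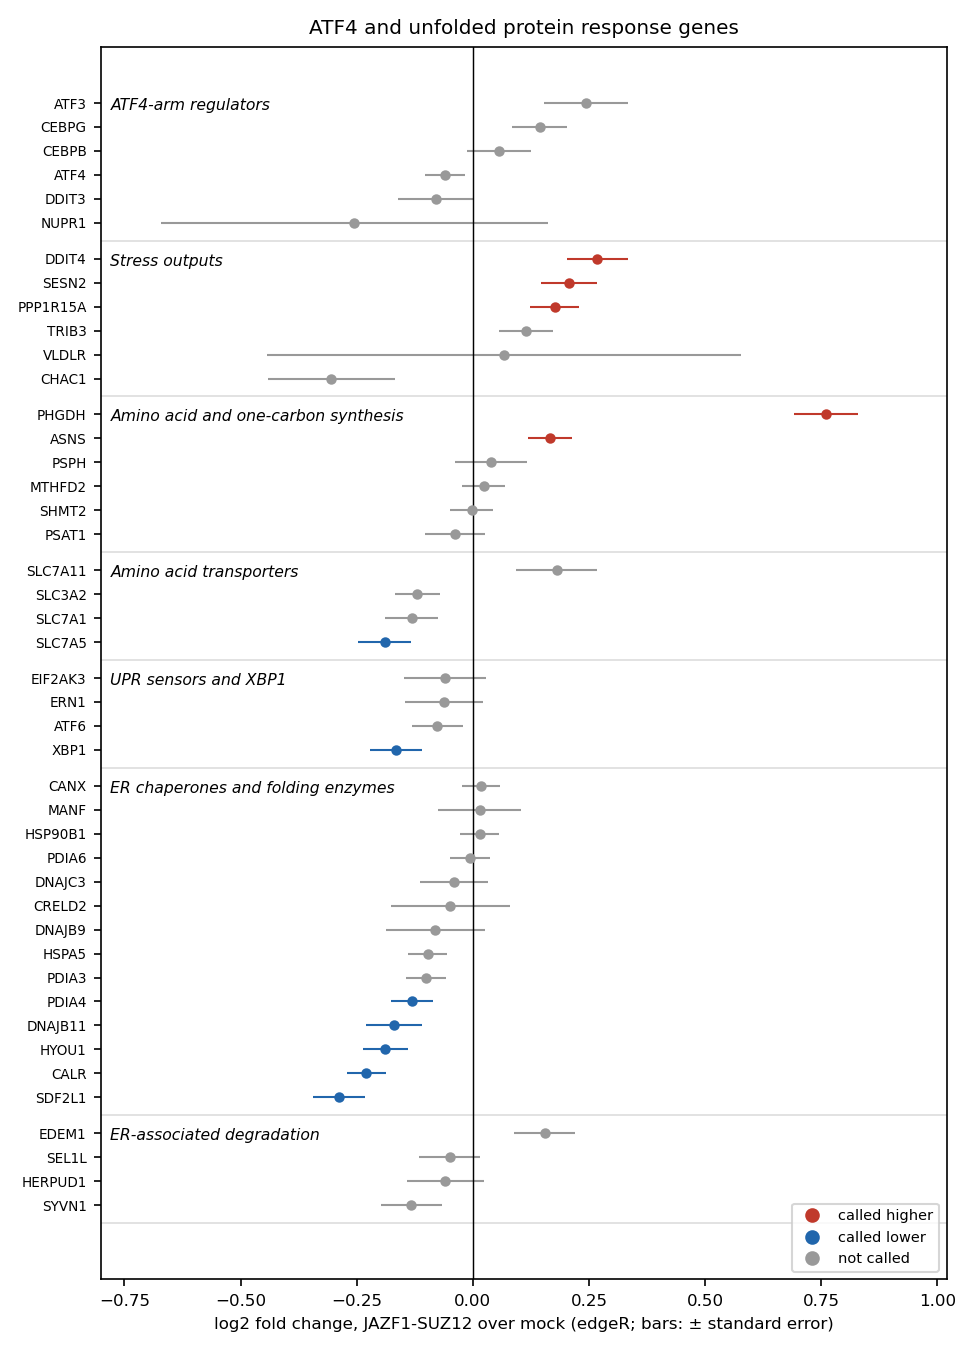
Log2 fold change (horizontal axis, JAZF1-SUZ12 over mock, edgeR) of the 44 genes, by functional group and sorted within each; points are estimates, bars are ± 1 standard error, and colour marks the test result (red higher, blue lower, grey neither). All 5 red points lie in the stress output and amino acid synthesis groups, and 6 of the 7 blue points lie among XBP1 and the ER chaperones.

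The regulators at the head of the ATF4 arm did not pass the test: 0 of 6 rose and 0 of 6 fell, although ATF3 lay near the threshold. ATF4 itself, the transcription factor that gives the arm its name, was at 345 and 341 CPM in the mock libraries and at 324 and 333 in the JAZF1-SUZ12 libraries. CPM here are counts per 1000000, on TMM-scaled library sizes. The JAZF1-SUZ12 libraries lay slightly below both mock libraries. The log2 fold change was -0.06 ± 0.04 (SE), short of the threshold (adjusted p = 0.347, edgeR). DDIT3 (CHOP), a transcription factor induced by ATF4 in prolonged ER stress, was at 32.9 and 36.6 CPM in mock and at 31.2 and 34.4 in JAZF1-SUZ12. The groups overlapped, with a log2 fold change of -0.08 ± 0.08 (SE; adjusted p = 0.532, edgeR). DDIT3 overlaps MARS1 and MBD6 on the opposite strand, and whether the counting used strand is not given in the sources used here.

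ATF3, a stress-induced repressor and activator downstream of ATF4, was at 28.6 and 24.9 CPM in mock and at 29.6 and 33.4 in JAZF1-SUZ12, higher in both but with a gap between groups smaller than the spread within them. Its log2 fold change was 0.24 and its adjusted p was 0.0615 by edgeR. ATF3 passed in 5 of 9 alternative settings on the 4 libraries, where its adjusted p ranged from 0.0154 to 0.241 over edgeR, DESeq2 and limma. It passed without JS-1 or Mock-1 (0.32 and 0.34, adjusted p = 0.0132 and 0.0259, edgeR) and not without JS-2 or Mock-2 (0.15 and 0.14, adjusted p = 0.413 and 0.396, edgeR). CEBPG, a dimer partner of ATF4, had a log2 fold change of 0.14 and CEBPB one of 0.06. NUPR1, at 1.45 CPM in mock, was too low for a precise estimate (log2 fold change -0.25).

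Among the ATF4-arm stress outputs, 3 of 6 rose. DDIT4, which encodes the mTORC1 inhibitor REDD1, was at 400 and 447 CPM in mock and at 469 and 551 in JAZF1-SUZ12. Both JAZF1-SUZ12 libraries were above both mock libraries, with means of 510 ± 57.8 and 424 ± 33.4 (SD, n = 2 each). DDIT4 had a log2 fold change of 0.27 ± 0.06 (SE; adjusted p = 0.00645, edgeR). Without Mock-1 it was 0.18 (adjusted p = 0.0549, edgeR), and without JS-2 it was 0.15 (adjusted p = 0.0238, edgeR), so its size rests on which libraries are included. DESeq2 on the 4 libraries did not call it (adjusted p = 0.216, DESeq2).

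SESN2, an antioxidant protein and leucine sensor that restrains mTORC1, was at 62.7 and 66.3 CPM in mock and at 73.2 and 75.6 in JAZF1-SUZ12. The groups did not overlap, and the log2 fold change was 0.21 ± 0.06 (SE; adjusted p = 0.0187, edgeR). PPP1R15A (GADD34), the phosphatase subunit that reverses eIF2 phosphorylation, was at 117 CPM in both mock libraries and at 137 and 128 in JAZF1-SUZ12, again without overlap. Its log2 fold change was 0.18 ± 0.05 (SE; adjusted p = 0.0244, edgeR). SESN2 did not pass without JS-2 or without Mock-1 (adjusted p = 0.106 and 0.167, edgeR), and of those 4 tests PPP1R15A passed in the one without JS-2 alone. With DESeq2 neither passed (adjusted p = 0.0803 and 0.0567, DESeq2). The other 3 outputs did not pass: TRIB3, a pseudokinase that feeds back on ATF4, had a log2 fold change of 0.12, VLDLR, at 0.82 CPM in mock, one of 0.07, and CHAC1, a glutathione-degrading enzyme, one of -0.30.

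Of the amino acid and one-carbon synthesis genes, 2 of 6 rose. PHGDH, the first enzyme of serine synthesis, was at 43.6 and 46.4 CPM in mock and at 71.9 and 80.1 in JAZF1-SUZ12. This was a 1.69-fold difference with a wide gap between the groups, and the largest fold change of all 44 members. On the log2 scale the fold change was 0.76 ± 0.07 (SE; adjusted p = 8.37e-07, edgeR). The next enzymes of the same route did not pass: PSAT1 had a log2 fold change of -0.04 and PSPH one of 0.04, with adjusted p of 0.718 and 0.757 by edgeR. SHMT2 and MTHFD2, the mitochondrial enzymes that carry serine's carbon onto folate, had log2 fold changes of -0.0024 and 0.02. The difference between PHGDH and these genes was not tested.

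ASNS, asparagine synthetase, whose promoter stretch is printed above, was at 206 and 217 CPM in mock and at 234 and 241 in JAZF1-SUZ12. The groups did not overlap, with means of 212 ± 8.15 and 237 ± 5.16 (SD, n = 2 each). The log2 fold change was 0.17 ± 0.05 (SE; adjusted p = 0.0184, edgeR). It did not pass without JS-2 (0.14, adjusted p = 0.0697, edgeR) or without Mock-1 (0.12, adjusted p = 0.206, edgeR). The pseudogene ASNSP1 took between 60 and 108 counts in a library, and reads of near-identical copies may have been divided between them.

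Of the 4 amino acid transporters, 1 fell and none rose. SLC7A5, the light chain of the leucine transporter LAT1, was at 262 and 301 CPM in mock and at 247 in both JAZF1-SUZ12 libraries. The JAZF1-SUZ12 libraries lay below both mock libraries, which lay well apart from each other. SLC7A5 had a log2 fold change of -0.19 ± 0.06 (SE; adjusted p = 0.0212, edgeR). Without Mock-2 it was -0.10 (adjusted p = 0.274, edgeR), and without Mock-1 it was -0.29. SLC3A2, the heavy chain that pairs with SLC7A5 and SLC7A11, had a log2 fold change of -0.12, and the cationic amino acid transporter SLC7A1 one of -0.13. SLC7A11, the cystine importer, had a fold change of the opposite sign, 0.18. None of these 3 passed (adjusted p = 0.0875, 0.105 and 0.147, edgeR).

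The ER arm opens with the sensors and XBP1, where 1 of 4 genes fell and all 4 had a negative fold change. XBP1 was at 86.5 and 84.4 CPM in mock and at 76.6 and 75.8 in JAZF1-SUZ12. The groups did not overlap, and the log2 fold change was -0.17 ± 0.06 (SE; adjusted p = 0.0421, edgeR). It passed in none of the 4 tests that left out a library, with adjusted p between 0.0607 and 0.165 by edgeR, and in 4 of 9 alternative settings on the 4 libraries. Spliced and unspliced XBP1 are summed in these counts.

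ATF6 was at 96.7 and 95.1 CPM in mock and at 91.1 and 90.8 in JAZF1-SUZ12, lower in both libraries by a small margin. Its log2 fold change was -0.08 ± 0.05 (SE; adjusted p = 0.340, edgeR). ERN1 was at 26.6 and 26.2 CPM in mock and at 25.9 and 24.8 in JAZF1-SUZ12, with a log2 fold change of -0.06 ± 0.08 (SE; adjusted p = 0.639, edgeR). EIF2AK3 was at 27.0 and 24.8 CPM in mock and at 23.9 and 25.6 in JAZF1-SUZ12, and its groups overlapped. Its log2 fold change was -0.06 ± 0.09 (SE; adjusted p = 0.671, edgeR). For these 3 sensors a fall or rise of a size within those errors would not have been detectable, and a larger one could also be missed. The fold change of ATF6 exceeded its standard error and still did not pass.

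Of the 14 ER chaperones and folding enzymes, 5 fell and none rose. CALR, calreticulin, the calcium-binding chaperone of newly made glycoproteins, was at 650 and 647 CPM in mock and at 567 and 539 in JAZF1-SUZ12. The groups were far apart, with means of 649 ± 2.35 and 553 ± 19.8 (SD, n = 2 each). CALR had a log2 fold change of -0.23 ± 0.04 (SE; adjusted p = 0.000921, edgeR). SDF2L1, a partner of the ER DNAJ co-chaperones, was at 161 and 172 CPM in mock and at 142 and 130 in JAZF1-SUZ12. Its groups did not overlap, and its log2 fold change was -0.29 ± 0.06 (SE; adjusted p = 0.00141, edgeR), the lowest of the ER arm. CALR, SDF2L1 and PHGDH were the 3 members that passed in every one of the 4 tests that left out a library.

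HYOU1, the nucleotide exchange factor that releases BiP from its clients, was at 253 and 256 CPM in mock and at 231 and 216 in JAZF1-SUZ12. Both JAZF1-SUZ12 libraries were below both mock libraries, with a log2 fold change of -0.19 ± 0.05 (SE; adjusted p = 0.00905, edgeR). Without JS-2 it was -0.14 (adjusted p = 0.0701, edgeR). PDIA4, a disulfide isomerase, was at 226 and 225 CPM in mock and at 208 and 204 in JAZF1-SUZ12. DNAJB11, a co-chaperone of BiP, was at 67.6 and 66.4 CPM in mock and at 58.3 and 60.5 in JAZF1-SUZ12. Neither gene's groups overlapped, and the log2 fold changes were -0.13 and -0.17, just past the threshold (adjusted p = 0.0461 and 0.0489, edgeR). PDIA4 passed in 1 of the 4 tests that left out a library and in 6 of 9 alternative settings on the 4 libraries, and DNAJB11 in 0 and in 4. DNAJB11 overlaps TBCCD1 on the opposite strand.

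HSPA5 (BiP), the central ER chaperone and the classic readout of the unfolded protein response, was at 463 and 449 CPM in mock and at 432 and 422 in JAZF1-SUZ12. Both JAZF1-SUZ12 libraries were below both mock libraries. The log2 fold change was -0.10 ± 0.04 (SE), short of the threshold (adjusted p = 0.11, edgeR). The disulfide isomerase PDIA3, which works with calreticulin and calnexin, had a log2 fold change of -0.10 (adjusted p = 0.0969, edgeR). The remaining 7 chaperone genes had log2 fold changes between -0.08 and 0.02: the ER HSP90 HSP90B1, the lectin chaperone CANX, PDIA6, the co-chaperones DNAJB9 and DNAJC3, and the secreted stress proteins MANF and CRELD2. CALR thus fell while CANX, its membrane-bound counterpart, had a log2 fold change of 0.02 (adjusted p = 0.804, edgeR); the difference between them was not tested. Of the 7 genes with an ER stress response element in the window searched, CALR and XBP1 fell and HSPA5, HSP90B1, CANX, PDIA6 and CRELD2 did not pass.

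None of the 4 genes of ER-associated degradation passed the test. HERPUD1 and SEL1L, which organise the membrane complex that exports misfolded proteins, had log2 fold changes of -0.06 and -0.05. SYVN1, its ubiquitin ligase, had one of -0.13, and EDEM1, a lectin that delivers glycoproteins to it, had one of 0.15, which passed in 1 of 9 alternative settings. SYVN1 overlaps MRPL49 and FAU, both of which were lower (log2 fold changes of -0.27 and -0.15, adjusted p = 0.00269 and 0.0291, edgeR), and the part of this overlap in the SYVN1 value was not tested.

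**Figure D2:**
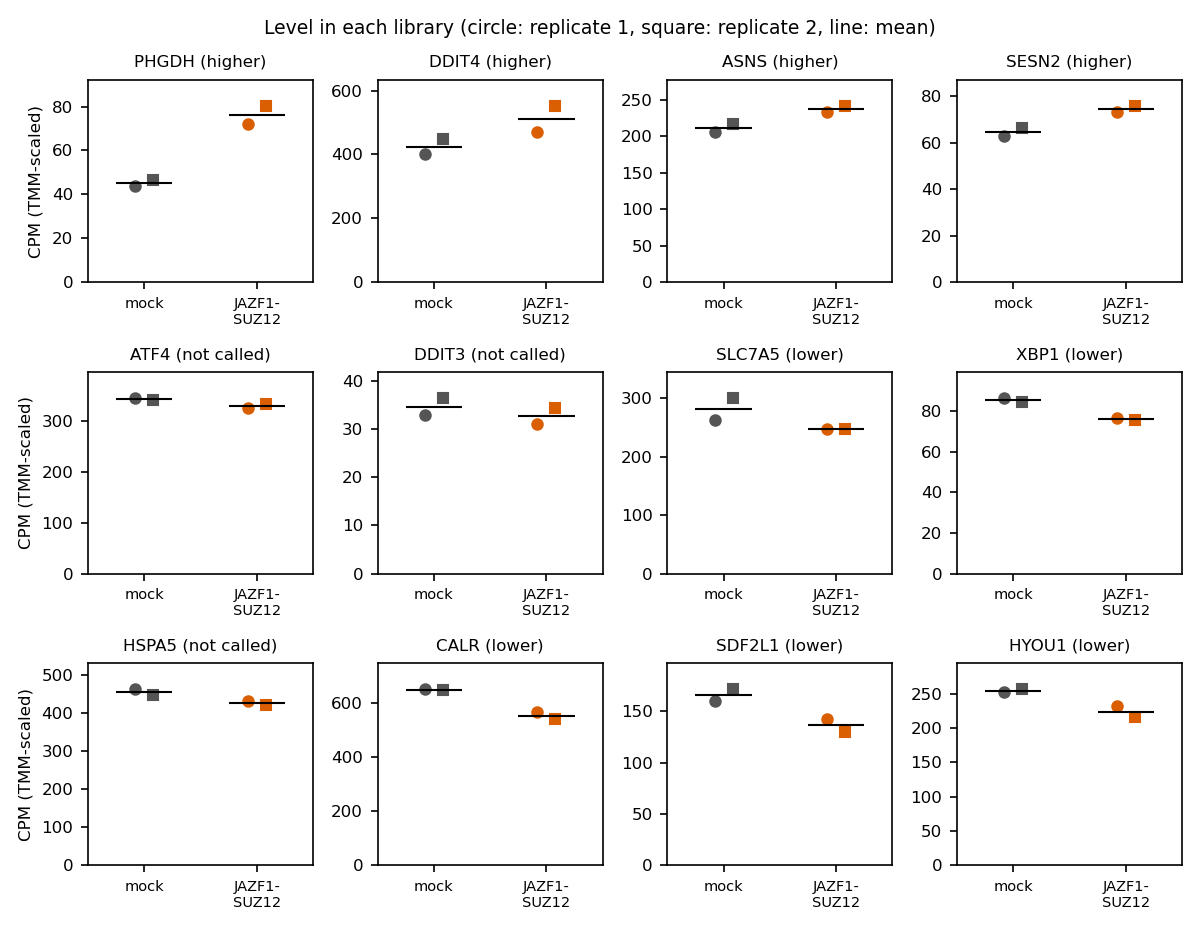
Level (vertical axis, CPM on TMM-scaled library sizes, from 0) of 12 genes in each of the 4 libraries; circles are replicate 1, squares replicate 2, lines are group means, and each title gives the test result. PHGDH shows the widest gap relative to its level, CALR, SDF2L1 and HYOU1 sit lower in both JAZF1-SUZ12 libraries, and the 2 groups overlap for DDIT3.

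Averaged over its genes, each arm was placed in every library as the mean of log2 (CPM + 1). The ER arm was at 6.70 and 6.71 in the mock libraries and at 6.63 and 6.61 in the JAZF1-SUZ12 libraries. The groups did not overlap, and the difference of means was -0.08. The ATF4 arm was at 6.0 and 6.08 in mock and at 6.07 and 6.13 in JAZF1-SUZ12. These groups overlapped, since Mock-2 was above JS-1, and the difference was 0.06.

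The ATF4 arm minus the ER arm was -0.70 and -0.63 in mock and -0.56 and -0.49 in JAZF1-SUZ12, so the gap between the arms was smaller in both JAZF1-SUZ12 libraries. As summed CPM, the ATF4 arm was 0.551 and 0.587 of the ER arm in mock and 0.603 and 0.650 of it in JAZF1-SUZ12. No test was run on these summaries, because 2 libraries against 2 cannot reach the threshold by permutation. PHGDH carries a large part of the ATF4-arm difference. Without it, a setting added after the data were seen, the difference was 0.03 over 21 genes, from 6.03 and 6.11 in mock to 6.07 and 6.12 in JAZF1-SUZ12. In bulk RNA, fewer cells expressing a gene and less RNA of it per cell cannot be told apart.

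**Figure D3:**
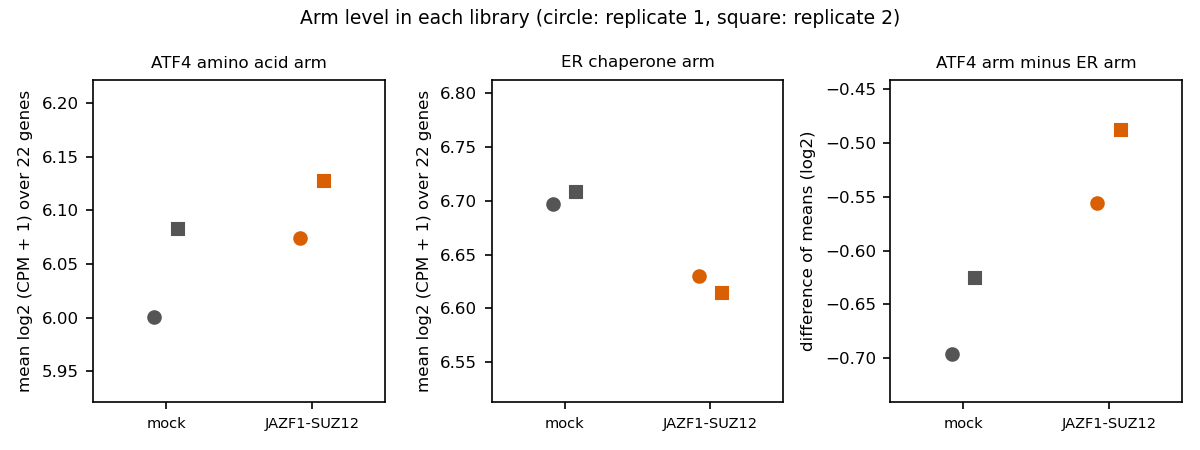
Mean log2 (CPM + 1) of the 22 ATF4-arm genes (left), of the 22 ER-arm genes (middle), and the first minus the second (right), in each library; circles are replicate 1 and squares replicate 2, and the vertical axes do not start at 0. The ER arm is lower in both JAZF1-SUZ12 libraries (6.63 and 6.61 against 6.70 and 6.71), whereas the ATF4-arm groups overlap.

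Levels can be compared between genes only per transcript length. Per kilobase of the longest annotated transcript, the mock libraries had most CALR (341 CPM per kilobase), followed by HSP90B1 (262), DDIT4 (242), CANX (202), SDF2L1 (192) and ATF4 (170). Of the 10 members with the highest level per kilobase, 7 belong to the ER arm and 3 to the ATF4 arm. The lowest were ERN1 at 3.35, NUPR1 at 0.263 and VLDLR at 0.0891 CPM per kilobase. The ER-arm genes that fell thus include its most abundant transcript per length, CALR, and the less abundant XBP1, at 39.3. All of them lay above the ER-arm median of 15.9 CPM per kilobase, the lowest being DNAJB11 at 16.4.

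The other genes of the 2 pathways were examined as 4 further lists. The lists were chosen with earlier results of these data known, so their shares describe them and are not evidence about the pathways. Of 27 tested genes among 28 other ATF4 targets and one-carbon enzymes, 10 rose and 7 fell (63.0% changed, beside 24.7% of all genes), with a median log2 fold change of 0.21. The 3 with the smallest p among those that rose were CDKN1A, KLHL24 and GDF15. CDKN1A, the cell cycle inhibitor p21, was at 35.2 and 31.9 CPM in mock and at 64.3 and 57.8 in JAZF1-SUZ12 (log2 fold change 0.86, adjusted p = 5.85e-07, edgeR). KLHL24, a ubiquitin ligase adaptor, was at 25.6 CPM in both mock libraries and at 38.5 and 44.4 in JAZF1-SUZ12 (0.70, adjusted p = 1.59e-05, edgeR). GDF15, a secreted stress cytokine, was at 116 and 120 CPM in mock and at 152 and 170 in JAZF1-SUZ12 (0.45, adjusted p = 3.90e-05, edgeR). All 3 also have regulators other than ATF4. KLHL24 is uncertain, since the authors' deposited table gives it a log2 fold change of 0.08. It did not pass in that table, and neither did some, but not all, of the other genes of this list named below.

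Among the 7 that fell, the 3 with the smallest p were SLC38A2, a neutral amino acid transporter, PYCR1, an enzyme of proline synthesis, and HSPA9, a mitochondrial chaperone. Their log2 fold changes were -0.19, -0.17 and -0.14 (adjusted p = 0.00585, 0.0114 and 0.0210, edgeR). PYCR1 and HSPA9 did not pass without JS-2 or without Mock-1. Genes of this list that handle amino acids or folate-bound carbon moved to both sides; those beyond the smallest p-values were named after their values were seen. GPT2, an alanine transaminase, the transporter SLC1A4, and the mitochondrial folate enzymes ALDH1L2 and MTHFD1L rose, by 0.64, 0.36, 0.59 and 0.21 on the log2 scale (adjusted p = 0.000115, 0.000463, 0.000453 and 0.0214, edgeR). ALDH18A1, an enzyme of proline synthesis, the transaminase GOT1 and the glutamine transporter SLC1A5 fell beside SLC38A2 and PYCR1, by 0.19, 0.17 and 0.12 (adjusted p = 0.0244, 0.0360 and 0.0435, edgeR). Of these 7, ALDH18A1 passed in none of the 4 tests that left out a library, SLC1A5 in 1, GOT1 in 2 and MTHFD1L in 3.

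Of the 20 cytosolic aminoacyl-tRNA synthetases, many of them known ATF4 targets, 1 rose and 4 fell (25% changed, close to the 24.7% of all genes), with a median of -0.06. FARSB and FARSA, the subunits of the phenylalanyl enzyme, fell by 0.35 and 0.28 on the log2 scale (adjusted p = 0.000316 and 0.000468, edgeR). VARS1, the valyl enzyme, fell by 0.17 on that scale (adjusted p = 0.00899, edgeR). Of 7 eIF2 kinases, phosphatases and related factors, 0 rose and 2 fell (28.6% changed, also near that share): EIF2S1, the eIF2 subunit that these kinases phosphorylate, by 0.24 and PPP1CA, the catalytic partner of PPP1R15A, by 0.15 (adjusted p = 0.00606 and 0.0306, edgeR). Without JS-2 neither passed, and PPP1CA passed in 1 of the 4 tests that left out a library.

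Of 37 other genes of ER folding, export and degradation, 1 rose and 4 fell (13.5% changed, below the 24.7% of all genes). Their median log2 fold change was -0.06, close to that of the ER arm. ERO1B, an oxidase that recharges disulfide isomerases, was at 14.7 and 14.9 CPM in mock and at 22.5 in both JAZF1-SUZ12 libraries (log2 fold change 0.60, adjusted p = 0.000408, edgeR). DNAJC10, an ER reductase, SSR1, a subunit of the translocon-associated complex, and SEC23B, a coat protein of ER export, had log2 fold changes of -0.23, -0.21 and -0.26 (adjusted p = 0.00594, 0.00899 and 0.00934, edgeR). SSR1 and SEC23B did not pass without JS-2.

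**Figure D4:**
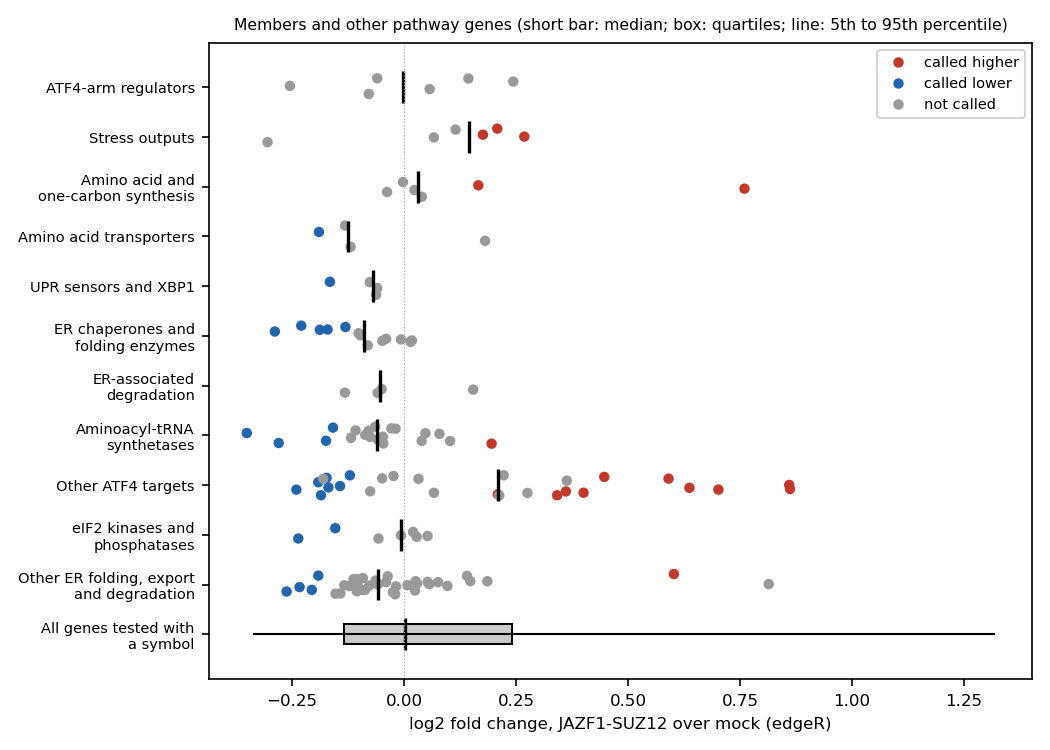
Log2 fold change (horizontal axis, JAZF1-SUZ12 over mock, edgeR) of each tested gene in the 7 functional groups and the 4 further lists; points are genes, coloured by test result, short bars are medians, and the bottom box and line give the quartiles and the 5th to 95th percentiles of all genes tested with a symbol. Other ATF4 targets spread to both sides around a median of 0.21. The chaperones lie near or below 0, and the other ER genes lie on both sides of 0 with a median of -0.06.

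The authors' deposited table of the same comparison has an adjusted p under 0.05 for 5 of the 44 members, beside 8.50% of all genes with an adjusted p in it. They are PHGDH and DDIT4, higher, and CALR, SDF2L1 and HYOU1, lower, and all 5 passed with the same direction here by edgeR. With DESeq2 as run here, DDIT4 did not pass (adjusted p = 0.216, DESeq2). For these 5 the log2 fold changes that the authors' deposited table gives are 0.72, 0.27, -0.24, -0.31 and -0.21. For 6 members, ERN1, SEL1L, CANX, MANF, PSPH and VLDLR, the sign in the authors' deposited table is opposite to that found here, and none of the 6 passed in either. Of the genes named above from the list of other ATF4 targets, CDKN1A, GDF15, ALDH1L2, SLC38A2 and PYCR1 passed in that table. KLHL24, GPT2, SLC1A4, MTHFD1L, HSPA9, ALDH18A1, GOT1 and SLC1A5 did not.

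The libraries held 17260936 and 24423028 counts with JAZF1-SUZ12 and 20444636 and 21296732 in mock. All 9 erythroid and K562 markers were high (112 to 3669 CPM in mock) and 4 of them were higher with JAZF1-SUZ12. The labels give uterus as the source, and of 6 endometrial stromal markers LUM was at 0 counts in every library, COL3A1, PDGFRA, ESR1 and DCN at 20 counts or fewer, and PGR at 93 to 147. The lymphocyte markers CD3E and MS4A1 and the monocyte markers CD14 and CSF1R were at 0 to 20 counts. Of the plasma cell markers, which stand for cells with a large ER, MZB1 and JCHAIN were at 5 counts or fewer and PRDM1 overlapped between groups, while SDC1 rose from 31 and 16 counts in mock to 155 and 198 with JAZF1-SUZ12 (log2 fold change 2.89, adjusted p = 1.60e-06, edgeR), opposite in direction to the ER chaperones. The part of these markers in the results was not tested.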

How the data were processed

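RNA was extracted from K562 cells and sequenced as poly(A)-selected, directional libraries, per the labels' protocols. The authors deposited estimated counts per gene, not normalized. The submitters' processing notes name fastp 0.20.1, FastQC 0.11.7, MultiQC 1.5, kallisto 0.46.2, DESeq2 1.30.1 and the build hg38, without roles or order. Use of strand in counting is not given in the sources used here. In the authors' deposited table, per the file headers, the mean signal per gene is a normalized mean count, the log2 fold change and its standard error are on a log2 scale, the score is the test statistic, and each p-value and adjusted p-value is the authors'.

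The members and lists were chosen with earlier results of these data known. Estimated counts were rounded, filtered with filterByExpr (14750 of 35606 genes kept) and scaled by TMM. The 2 JAZF1-SUZ12 libraries were compared with the 2 mock libraries by edgeR's two-sided quasi-likelihood test (edgeR 4.0.16, R 4.3.3) with Benjamini-Hochberg adjustment and a threshold of 0.05. The standard error is the size of the log2 fold change divided by the square root of F. Arm means use a pseudocount of 1. Transcript lengths are from GENCODE 29. Depth ran from 17260936 to 24423028 counts, and each SD rests on 2 libraries. Levels in each library are given for ATF4, DDIT3, ASNS, XBP1, ATF6, ERN1, EIF2AK3, HSPA5 and up to 12 changed members a direction with the smallest p; ATF3 and 7 genes of the further lists were added after their values were seen. Of each further list, up to 3 changed genes a direction are named, and some items are not reported here. Tested on simulated data for this comparison (14700 genes), edgeR called 99 of 100 genes with a 2-fold change, 92 of 100 with a 1.5-fold change and 7 that were unchanged. The simulation gave every gene the same dispersion, 0.003, and changed only genes with a mean of at least 50 counts. Changes below 1.5-fold, the size of those in all changed members but PHGDH, were not simulated. Alternatives were DESeq2 size factors, total counts only, DESeq2 1.42.0, limma-voom (limma 3.58.1), no filter, a mean of at least 50 counts, a replicate block, GC and length offsets with and without that block, a threshold of 0.01 and leaving out each library.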

Additional observations from a re-analysis of the deposited data

How the results depend on the processing

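Of the 12 changed members, 6 passed in all 9 alternatives that use the 4 libraries (ASNS, PHGDH, SLC7A5, CALR, SDF2L1 and HYOU1), and all 12 kept their direction in them. DDIT4, SESN2 and PPP1R15A did not pass with DESeq2 (adjusted p = 0.216, 0.0803 and 0.0567, DESeq2). XBP1 and DNAJB11 passed in 4 of the 9 and PDIA4 in 6. With DESeq2 6 members passed, 2 of them ATF4-arm genes that rose and 3 ER-arm genes that fell, and 2407 genes in all. At an adjusted p under 0.01 by edgeR 5 members passed, 2 ATF4-arm genes that rose, 0 that fell and 3 ER-arm genes that fell, of 2045 genes. With total counts in place of TMM 3 ER-arm genes fell, the ER-arm median was -0.0475 and the difference in its mean level was -0.0595. With a mean of at least 50 counts 3 ER-arm genes fell, 1 rose (EDEM1) and the median was -0.0454. With GC and length offsets 2 ATF4-arm genes fell. Leaving out 1 library at a time gave 7 to 11 members, 2 to 6 ATF4-arm genes that rose and 0 to 2 that fell, and 2 to 4 ER-arm genes that fell; these tests were added after the data were seen, and a lone library is assumed to vary like the other group. The fold changes of the same settings were planned, and gave medians from -0.0056 (without Mock-1) to 0.0898 in the ATF4 arm and from -0.0999 to -0.0813 in the ER arm. Without Mock-1 the ATF4-arm median thus changed sign. Leaving PHGDH out lowered the difference in the ATF4-arm mean level to 0.0262. The cause of these changes was not tested.

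Over 11826 genes the deviations of same-numbered libraries had a correlation of 0.02. With 2 libraries a group this value cannot show whether the numbers mark a shared culture or run. Their meaning is not given in the sources used here. With the replicate block 4061 genes passed in place of 3643 and 13 members in place of 12, the addition being ATF3 (adjusted p = 0.0389, edgeR), which passed in 5 of the 9 alternatives. With the replicate block and GC and length offsets together 3 ATF4-arm genes fell. Depth limits NUPR1 and VLDLR most, with means below 50 counts.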
